A study of Mus musculus with 6 samples.

Results

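The mitochondrial ribosomal protein genes of the mouse thymus were compared between 2 F1 crosses. The members are the genes whose symbol is Mrpl (large subunit) or Mrps (small subunit) with a number and at most 1 letter, taken from probe sets that the platform annotation gives exactly 1 symbol. Each gene was represented by its brightest probe set (mean of the 6 arrays), which gave 76 genes of 18193 with a probe set of 1 symbol. Thymus RNA of adult female mice was hybridized to single-channel Affymetrix mouse arrays, 3 for (AKR/J x FVB/NJ)F1 (AKR F1) and 3 for (DBA/2J x FVB/NJ)F1 (DBA F1). No treatment is labelled other than anesthesia at collection, and no age beyond adult. FVB/NJ is a parent of both crosses, so the groups differ in the AKR/J or DBA/2J parent. The series asks how basal thymus expression differs between these genotypes. Whether each array is another animal is not labelled, so p-values measure a spread between samples that may be technical.

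The mitochondrial ribosome sits in the matrix of mitochondria and makes the few proteins that mitochondrial DNA encodes, all of them subunits of the respiratory chain and ATP synthase. Its RNAs come from the mitochondrial genome, but its proteins are made in the cytosol from nuclear genes and imported. Some of these proteins have counterparts in the bacterial ribosome, and others were added in the mitochondrial lineage. Symbols do not always follow the subunit, since Mrps30 and Mrps18a encode proteins of the large subunit and the product of Mrps36 has since been assigned to the oxoglutarate dehydrogenase complex.

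Values are log2 probe set values as deposited, and differences are AKR F1 minus DBA F1 on that scale with the standard error (SE). Calls come from limma at an adjusted p under 0.05 (Benjamini-Hochberg, 12852 genes), and a called gene is AKR-high or DBA-high by the F1 with the higher mean. All 76 genes were tested, and all 76 lay above the 40th percentile of the array on every array. Array medians ran from 5.92 to 5.95, and array correlations from 0.994 to 0.996 within a cross and from 0.984 to 0.989 between crosses. All 8 listed thymocyte markers passed the filter, among them Rag1 (AKR mean 12.99, DBA mean 13.07) and Dntt (13.06 and 13.03), which serve antigen receptor gene assembly. Of the 8, Cd3e, of the T cell receptor complex, was called AKR-high (0.30) and Cd1d1, which presents lipids, DBA-high (-0.26). DBA replicate 1 stood apart in skeletal muscle markers, with Acta1, the skeletal actin gene, at 11.99 against 6.09 to 9.28 on the other 5 arrays.

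Mitochondrial ribosomal protein genes were mostly higher in AKR F1, by small amounts. Of 76 members, 19 were called AKR-high, 1 was called DBA-high and 56 were not called. Over all genes tested, 13.8% were called AKR-high and 12.5% DBA-high. The members' shares were 25% and 1.32%. In either direction 26.3% of members were called, and 26.3% of all genes, so the share called was no larger among the members. The median difference of the members was 0.15, against 0.03 over all genes, and 62 of 76 members (81.6%) had the higher mean in AKR F1, against 55.4% of all genes. The number of members past 2-fold was 0 with a largest fold of 1.45, and differences ran from -0.48 to 0.53.

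The arrays of the crosses did not overlap for 39 members higher in AKR F1 (51.3%), where the share over all genes was 24.5%, and for 3 members with the DBA arrays on top, where it was 19.4%. The mean over the 76 members was 9.39, 9.32 and 9.33 on AKR replicates 1, 2 and 3, and 9.28, 9.19 and 9.11 on DBA replicates 1, 2 and 3. The same mean over all genes tested lay between 7.97 and 8.02 on every array. AKR replicate 1 held the highest value of 40 members and DBA replicate 3 the lowest value of 48. Without DBA replicate 1, the array with the muscle signal, 22 members were called AKR-high and 1 DBA-high, and the median was 0.18. Without AKR replicate 1 or without DBA replicate 3 the median was 0.12, and without AKR replicate 1 or without DBA replicate 2 the AKR count was 13. Over all genes the AKR count was 1669 without DBA replicate 1, 1142 without AKR replicate 1 and 1147 without DBA replicate 2, against 1779. After quantile normalization 35 members were called AKR-high and 1 in DBA F1. For all genes the same setting moved the AKR count from 1779 of 3383 to 2357 of 3794.

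**Figure D1:**
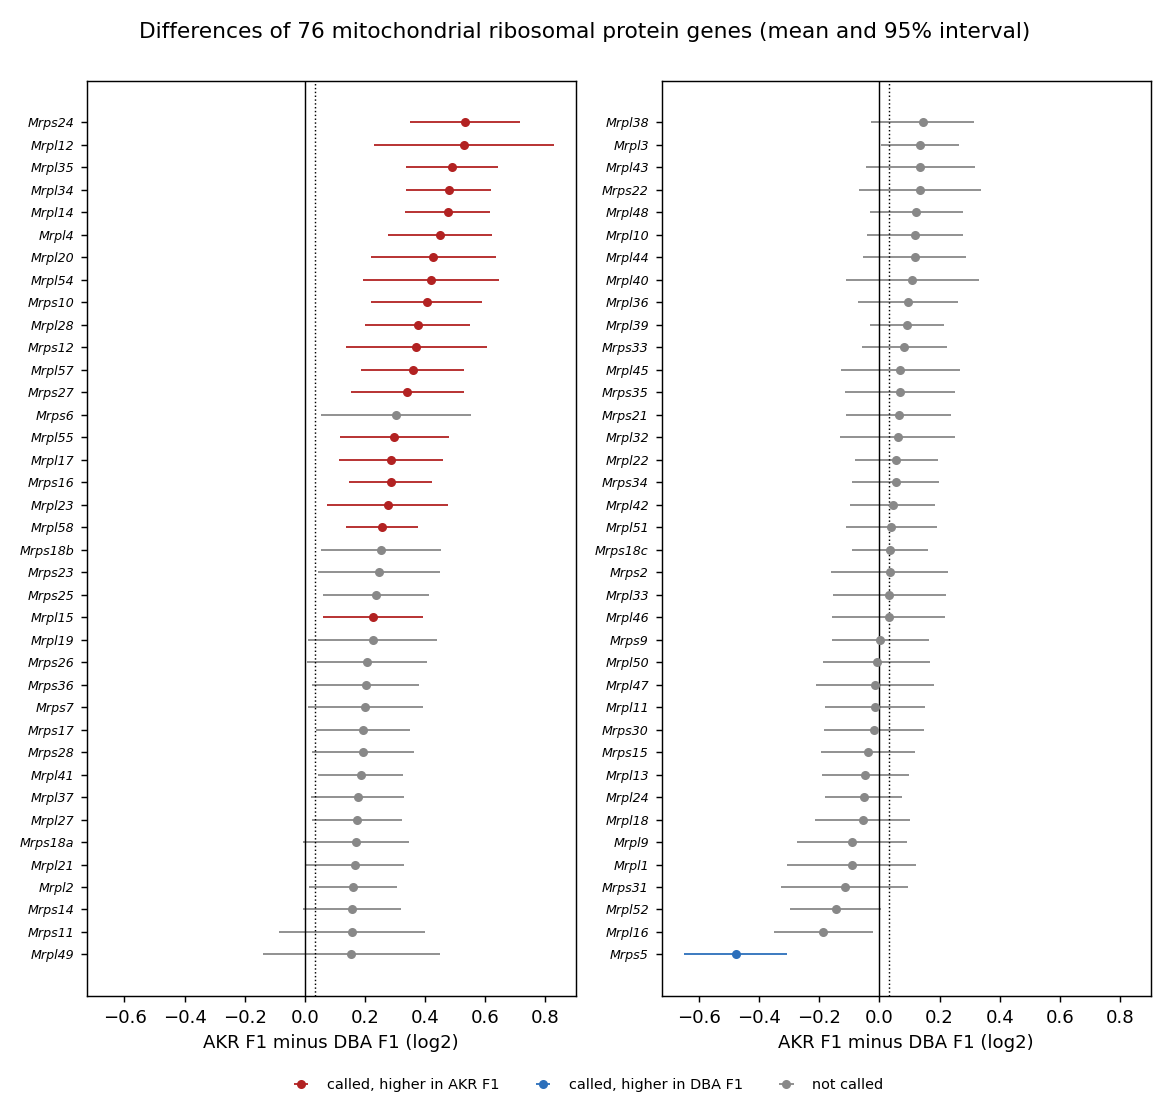
Log2 difference (AKR F1 minus DBA F1) of each of the 76 mitochondrial ribosomal protein genes, ordered by size, with its 95% interval from limma. Red genes (19) were called AKR-high and the blue gene, Mrps5, higher in DBA F1. The dotted line marks the median of all genes tested, 0.03, and the solid line 0.

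Among small subunit genes, Mrps24 showed the largest difference of all members. Mrps24 encodes the counterpart of bacterial S3, a protein at the entrance of the messenger channel. It stood at 10.35, 10.24 and 10.15 in AKR F1 and at 9.85, 9.67 and 9.62 in DBA F1. Every AKR array lay above every DBA array, the fold was 1.45, and the difference was 0.53 ± 0.08 (SE, adjusted p = 0.00198, limma). For its other probe set the difference, 0.10 ± 0.08, was not called, so the size of the Mrps24 difference depended on the probe set.

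Other small subunit genes called in the AKR direction were Mrps10, Mrps12, Mrps27 and Mrps16. Mrps10, the counterpart of bacterial S10, read 8.56, 8.45 and 8.45 in AKR F1 and 8.20, 8.06 and 7.99 in DBA F1, with no overlap (0.41 ± 0.08, adjusted p = 0.00734, limma). The second Mrps10 probe set was called the same way (0.36). Mrps16, the counterpart of bacterial S16, read 10.60, 10.55 and 10.59 against 10.37, 10.32 and 10.20 (0.29 ± 0.06, adjusted p = 0.00954, limma). For both genes the lowest AKR array exceeded the highest DBA array by more than the spread among the AKR arrays. Mrps12, the counterpart of bacterial S12 at the decoding site, read 9.48, 9.22 and 9.22 against 9.13, 8.84 and 8.84 (0.37 ± 0.10). In each cross replicate 1 was the high array for Mrps12. It was not called without AKR replicate 1 (adjusted p = 0.0881, limma), DBA replicate 2 (0.0968) or DBA replicate 3 (0.0926). Mrps27, a mitochondria-specific member with RNA-binding repeats, differed by 0.34 ± 0.08. Leaving out replicate 2 of AKR F1 gave an adjusted p = 0.0537 and replicate 2 of DBA F1 an adjusted p = 0.0583 (limma), neither called.

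Mrps5 was the member called in the other direction. In all, 14 members had the higher mean in DBA F1. For Mrpl16 (-0.19) and Mrpl52 (-0.15) all DBA arrays were also higher, but neither was called. The other passing Mrpl52 probe sets differed in the AKR direction (0.05, 0.13 and 0.10), also not called. Mrps5 encodes the counterpart of bacterial S5, which borders the messenger channel beside S3. It read 8.36, 8.46 and 8.37 on the AKR arrays and 8.99, 8.82 and 8.82 on the DBA arrays, so all DBA arrays were higher. The gene was 1.39-fold higher in DBA F1 (-0.48 ± 0.08, adjusted p = 0.00257, limma). Its 4 other probe sets were not called, with differences of -0.24, -0.11, 0.02 and 0.07. The mean of all 5 probe sets differed by -0.15 and was not called (adjusted p = 0.145, limma), so the Mrps5 call rested on 1 probe set. Of the nearest tested genes on the chromosome, Prom2 was called in the same direction (-0.43), and Kcnip3, Mal and Mall were not called.

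Among large subunit genes, those with the smallest adjusted p were Mrpl34, Mrpl14 and Mrpl35. Mrpl34, the counterpart of bacterial L34, stood at 10, 9.97 and 9.98 in AKR F1 and at 9.58, 9.49 and 9.43 in DBA F1 (0.48 ± 0.06, adjusted p = 0.00101, limma). Mrpl14, the counterpart of bacterial L14 at the face that meets the small subunit, stood at 9.39, 9.45 and 9.42 against 8.92, 8.97 and 8.95 (0.48 ± 0.06, adjusted p = 0.00101, limma). Mrpl35, the counterpart of bacterial L35, stood at 9.95, 9.90 and 9.84 against 9.47, 9.42 and 9.32 (0.49 ± 0.07, adjusted p = 0.00126, limma). For these genes the gap between the crosses was wider than the range of the arrays within either cross.

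Proteins of the peptide exit tunnel were also among the called genes. Mrpl4, the counterpart of bacterial L4 in the tunnel wall, read 9.15, 9.12 and 9.14 in AKR F1 and 8.81, 8.67 and 8.57 in DBA F1 (0.45 ± 0.08, adjusted p = 0.00342, limma). Mrpl23, the counterpart of L23 at the tunnel exit, read 10.09, 10.05 and 10.08 against 9.98, 9.81 and 9.60 (0.28 ± 0.09, adjusted p = 0.0493, limma). Mrpl23 lay just inside the threshold, and Mrps25, at an adjusted p = 0.0502 by limma, just outside it. Mrpl23 was not called without any 1 of the 3 AKR arrays, DBA replicate 2 or DBA replicate 3 (adjusted p from 0.0989 to 0.127, limma). Mrpl15, which has 7 probe sets that passed the filter, was called on its brightest (0.23 ± 0.07, adjusted p = 0.0479, limma). It was not called without any 1 of the same 5 arrays (adjusted p from 0.0831 to 0.158, limma). Another 3 of its probe sets were called in the AKR direction (0.52, 0.30 and 0.36) and 3 were not called (0.10, 0.01 and -0.21).

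The stalk of the large subunit recruits translation factors, and of its genes Mrpl12 was called while Mrpl10 and Mrpl11 were not. Mrpl12, the counterpart of bacterial L7/L12 and the stalk protein itself, read 9.60, 9.52 and 9.40 in AKR F1 and 9.25, 9.02 and 8.65 in DBA F1. The crosses did not overlap, and the DBA arrays spread widely (SD 0.30). The difference was 0.53 ± 0.13 (adjusted p = 0.0185, limma), but was not called without AKR replicate 1 (adjusted p = 0.0551, limma) or AKR replicate 2 (0.0563). Mrpl10, which anchors the stalk, differed by 0.12 (95% interval -0.04 to 0.28) and Mrpl11, at its base, by -0.02 (-0.18 to 0.15). No test of the difference between these genes was run.

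The remaining large subunit genes called in the AKR direction were Mrpl20, Mrpl54, Mrpl28, Mrpl57, Mrpl55, Mrpl17 and Mrpl58. Mrpl58 encodes a peptidyl-tRNA hydrolase built into the ribosome that can rescue stalled translation. It read 11.01, 10.97 and 11.07 in AKR F1 and 10.75, 10.73 and 10.80 in DBA F1 (0.26 ± 0.05, adjusted p = 0.00802, limma). Mrpl28, the counterpart of bacterial L28, read 9.79, 9.79 and 9.74 against 9.45, 9.49 and 9.24 (0.38 ± 0.08, adjusted p = 0.00799, limma). Both other Mrpl28 probe sets were called the same way (0.40 and 0.26), as was the other Mrpl57 probe set (0.40). Mrpl57, a mitochondria-specific gene, read 10.61, 10.34 and 10.46 against 10.15, 10.05 and 10.13 (0.36 ± 0.08, adjusted p = 0.00881, limma). Mrpl20, the counterpart of bacterial L20, differed by 0.43 ± 0.09 with DBA replicate 3 as its low array (9.50 against 9.77 and 9.84).

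Other calls were lost when certain single arrays were left out. With 5 arrays the adjusted p then passed 0.05 while the difference stayed of like size. Mrpl54, a mitochondria-specific gene, differed by 0.42 ± 0.10, and without AKR replicate 3 by 0.39 (adjusted p = 0.0510, limma). Mrpl55 (0.30 ± 0.08), with differences from 0.25 to 0.31, was not called without AKR replicate 1, AKR replicate 3, DBA replicate 2 or DBA replicate 3 (adjusted p from 0.0563 to 0.0835, limma). Mrpl17 (0.29 ± 0.08), the counterpart of bacterial L17, with differences from 0.24 to 0.29, was not called without any of these 4 arrays as well (adjusted p from 0.0592 to 0.0720, limma). Its value when probe sets with suffix _x_at, _s_at or _a_at were left out was 0.23 (adjusted p = 0.323, limma).

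**Figure D2:**
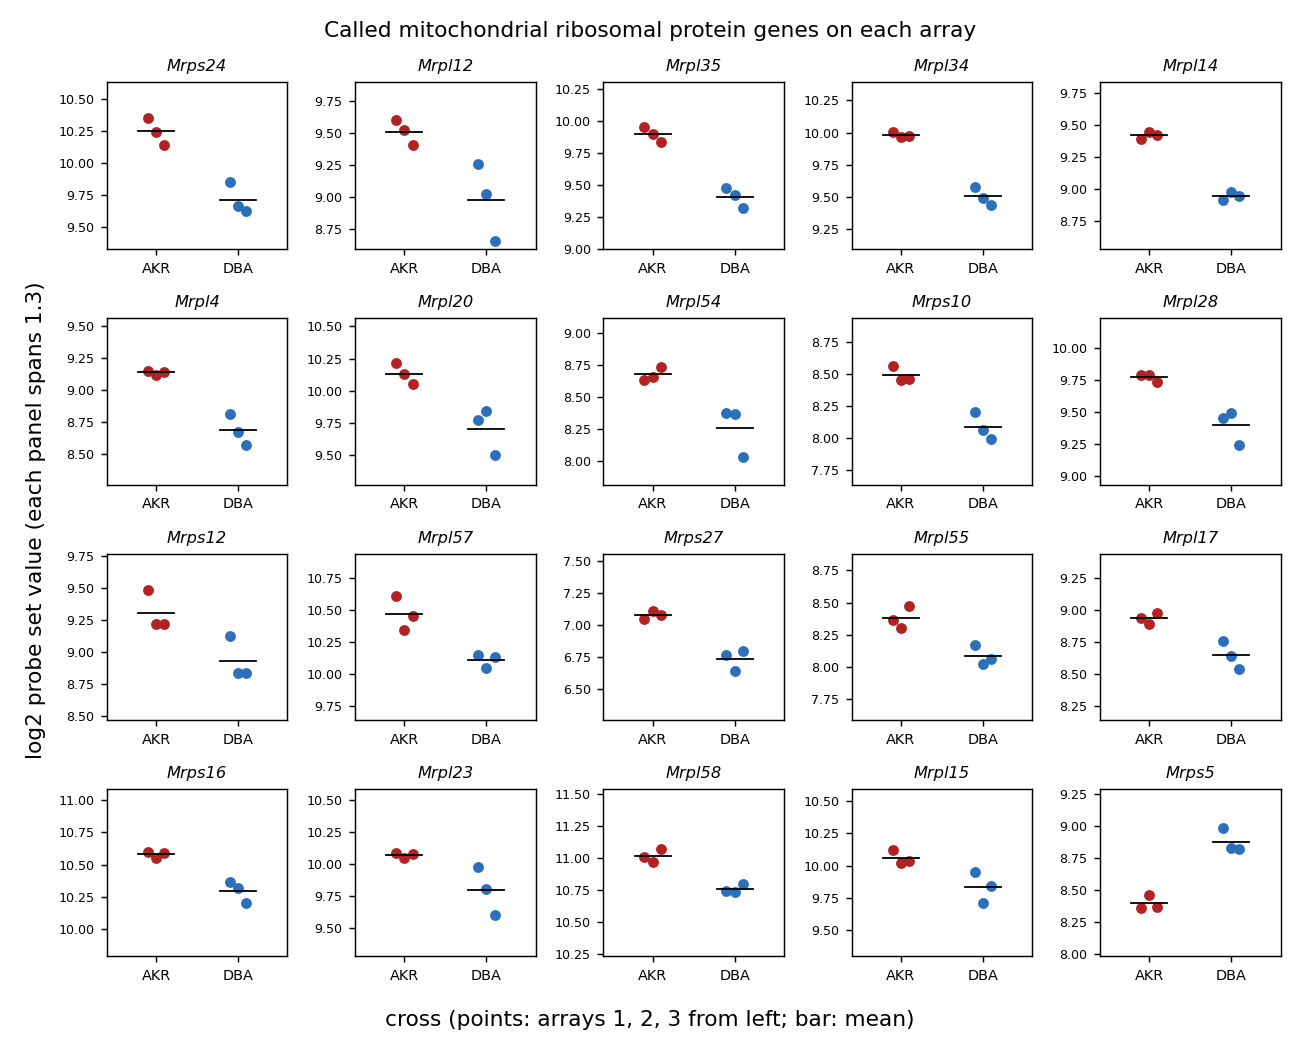
Log2 probe set values of the 20 called members on each array, with AKR arrays in red, DBA arrays in blue, replicates 1 to 3 from left to right and a bar at the mean. In each panel the crosses do not overlap. The 3 DBA arrays of Mrps5 lie above its AKR arrays, and in the other 19 panels the AKR arrays are higher.

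By subunit, 14 of 49 large subunit genes were called AKR-high and 0 DBA-high (limma; of the 22 at an unadjusted p under 0.05, 7 uncalled genes were higher in AKR F1 and 1 in DBA F1). Of 26 small subunit genes, 5 were called AKR-high and 1 DBA-high. The medians were 0.14 and 0.18. Large subunit genes with a bacterial counterpart were called AKR-high in 11 of 29 cases, and mitochondria-specific ones in 3 of 19, with medians of 0.16 and 0.12. In the small subunit the same counts were 4 of 16 and 1 of 10, with medians of 0.18 and 0.17. Over all genes 13.8% were AKR-high, and the mitochondria-specific shares (15.8% and 10%) lay near it. Members of 1 ribosome are not independent replicates, and no test between these classes was run.

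**Figure D3:**
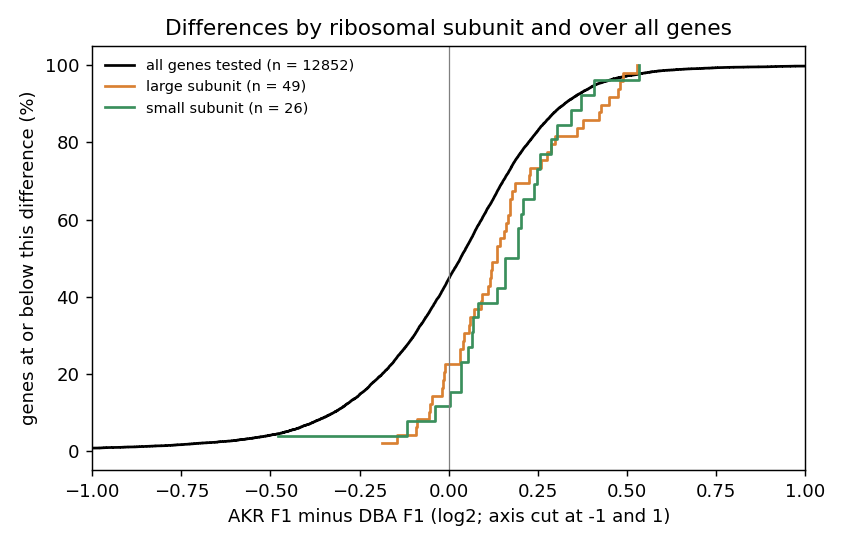
Share of genes (%) at or below each log2 difference (AKR F1 minus DBA F1) for 12852 genes tested (black), 49 large subunit genes (orange) and 26 small subunit genes (green). Both subunit curves lie to the right of the curve of all genes over most of the range, with medians of 0.14 and 0.18 against 0.03.

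The 56 members not called ran from -0.19 (Mrpl16) to 0.30 (Mrps6). Of these, 17 had an unadjusted p under 0.05 by limma, 16 with the higher mean in AKR F1. Of all 9469 genes not called, 1671 had an unadjusted p under 0.05 (limma), 981 with the higher mean in AKR F1. Mammals have 3 homologues of bacterial S18, and none was called. Mrps18b, which takes the mitochondria-specific place in the small subunit, differed by 0.26 ± 0.09 (adjusted p = 0.0610, limma). Mrps18a, of the large subunit, differed by 0.17 ± 0.08 (adjusted p = 0.139, limma). Mrps18c, at the S18 site itself, stood at 10.20, 10.20 and 10.26 against 10.19, 10.22 and 10.15, a difference of 0.03 (95% interval -0.09 to 0.16). The crosses overlapped for Mrps18c and did not for the other homologues. Mrps36 differed by 0.20 ± 0.08 and Mrps30 by -0.02, neither called. Among the members the lowest probe set means were those of Mrps27 (6.91), Mrpl1 (7.02) and Mrpl38 (8.09) and the highest those of Mrps14 (10.98), Mrpl58 (10.89) and Mrpl24 (10.74). Different probe sets bind with different strength, so this is no order of RNA levels.

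The choice of probe set mattered for some members. The 76 members had 156 probe sets, of which 134 passed the filter, and 33 members had 58 further passing probe sets. When all 27385 passing probe sets were tested together, 27.2% were called, 12.2% higher in AKR F1 and 15% higher in DBA F1. Of the members' 134, 29 were called AKR-high and 4 DBA-high. The sign of the difference was that of the chosen probe set for 42 of the 58 further ones. For 0 members were 2 probe sets called in opposite directions, by limma over the 134 probe sets. With this spread but adjustment over genes, 24% of genes were called (12.5% AKR-high), and 17 members were AKR-high and 1 DBA-high. Mrpl15 (adjusted p = 0.0558, limma) and Mrpl23 (0.0569) were then not called.

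In this fit 9 members were called only by a further probe set, among them Mrpl15, so 8 of the 9 were not among the 20 called members. Mrps9, the counterpart of bacterial S9, differed by 0.00 on its chosen probe set and by 0.01 and -0.01 on 2 others, while another read 7.03, 6.96 and 7.06 in AKR F1 and 7.57, 7.56 and 7.71 in DBA F1 (-0.60 ± 0.09, adjusted p = 0.00149, limma). Mrps15 (-0.39) and Mrpl1 (-0.30) likewise had 1 dimmer probe set called in the DBA direction. Mrps6 (0.46), Mrps2 (0.45), Mrps21 (0.49), Mrpl27 (0.36) and Mrpl48 (0.27) had 1 called in the AKR direction. Mrps9, Mrps15, Mrpl1, Mrps6, Mrps2, Mrps21, Mrpl27 and Mrpl48 are named here after their values were seen. What the dimmer probe sets bind was not tested.

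**Figure D4:**
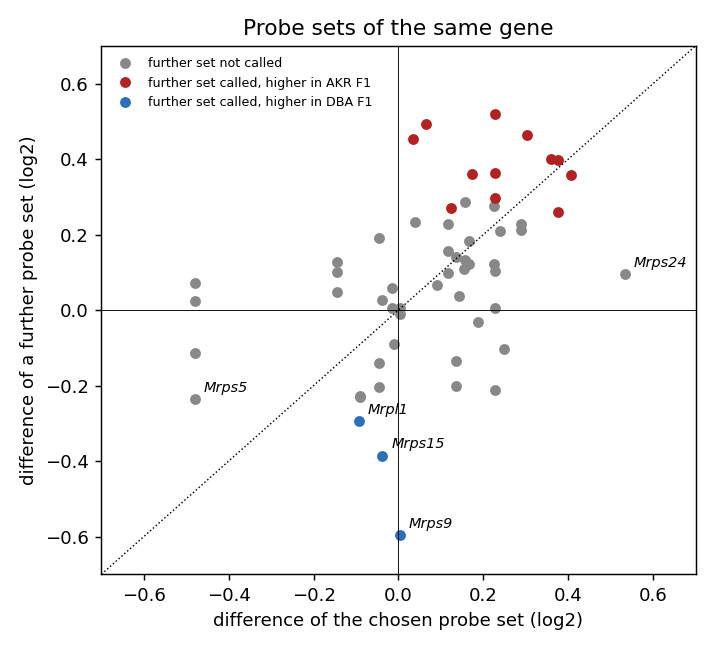
Log2 difference (AKR F1 minus DBA F1) of each of 58 further probe sets against that of the chosen probe set of the same gene. Points on the dotted line agree fully, 12 further probe sets were called AKR-high (red) and 3 DBA-high (blue), and Mrps9 shows the largest gap among the called ones.

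Promoter sequences were available from RefSeq (GRCm38.p6) for 67 of the 76 genes, as 73 windows from 250 bases before to 50 bases after a transcript start. Genes for mitochondrial proteins are known for promoters with sites of GABP, an ETS factor, of NRF1 and of YY1. Core motifs were searched on both strands, and none of them contains another. The GABP core CCGGAAG was found in 25 of 73 member promoters (34.2%), against 16.2% of 13197 promoters of the genes tested and 8.9% of all 32851 promoters. The YY1 core AAGATGGC was found in 12 (16.4%, against 4.1% and 2.7%) and the NRF1 core GCGCATGC in 8 (11.0%, against 4.8% and 2.7%). The E-box CACGTG, bound by MYC and its partner MAX among others, was found in 7 (9.6%, against 9.4% and 7.2%), and TATAAA in 5 (6.8%, against 7.9% and 13.6%). At least 1 of the GABP, YY1 and NRF1 cores stood in 37 of 73 member promoters (50.7%), against 23.0% of promoters of the genes tested. The GABP core stood in 7 of 17 promoters of members called AKR-high and in 18 of 55 promoters of members not called. A match is a stretch of letters and no measured binding site.

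The 200 bases before the start are shown for the called members of largest difference that hold a GABP, YY1 or NRF1 core there, and for Mrps5, the member called in the opposite direction. Capitals mark the core motifs on either strand. The sequences are those of Mrpl34 (chr8:71464726-71464925, plus strand), Mrps12 (chr7:28741822-28742021, minus strand), Mrps27 (chr13:99344586-99344785, plus strand), Mrpl17 (chr7:105811088-105811287, minus strand) and Mrps5 (chr2:127587226-127587425, plus strand), each written from 5′ to 3′ in the direction of the gene.
Mrpl34: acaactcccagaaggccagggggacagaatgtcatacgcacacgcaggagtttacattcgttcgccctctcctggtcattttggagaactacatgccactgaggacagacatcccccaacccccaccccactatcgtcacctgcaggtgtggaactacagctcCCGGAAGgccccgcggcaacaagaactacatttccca
Mrps12: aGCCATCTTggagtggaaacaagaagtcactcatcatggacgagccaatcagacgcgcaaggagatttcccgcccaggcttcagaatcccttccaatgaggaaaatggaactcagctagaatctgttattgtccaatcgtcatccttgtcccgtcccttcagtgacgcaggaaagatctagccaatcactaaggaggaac
Mrps27: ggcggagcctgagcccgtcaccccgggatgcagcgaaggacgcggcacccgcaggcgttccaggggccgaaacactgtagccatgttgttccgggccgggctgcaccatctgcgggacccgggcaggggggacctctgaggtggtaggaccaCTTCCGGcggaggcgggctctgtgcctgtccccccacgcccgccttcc
Mrpl17: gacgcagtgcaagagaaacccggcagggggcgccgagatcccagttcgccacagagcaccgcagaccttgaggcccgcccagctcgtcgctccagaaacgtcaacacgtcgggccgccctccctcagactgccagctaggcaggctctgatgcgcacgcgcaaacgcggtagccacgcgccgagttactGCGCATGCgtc
Mrps5: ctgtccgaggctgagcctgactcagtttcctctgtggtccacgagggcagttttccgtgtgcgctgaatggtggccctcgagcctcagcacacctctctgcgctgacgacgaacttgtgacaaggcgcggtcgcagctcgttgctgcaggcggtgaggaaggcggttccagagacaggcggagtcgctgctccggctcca

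Mrpl34 and Mrps27 hold a GABP core, on opposite strands, Mrps12 a YY1 core far from its start, and Mrpl17 an NRF1 core close to its start. Within the 300-base window but outside the printed stretch, Mrps12 and Mrpl17 also hold a GABP core and Mrps27 a YY1 core. No capitals occur in the Mrps5 stretch, which says only that these letters are not in this window. Mrpl34 and Mrpl17 differed by 0.48 and 0.29, Mrps12 and Mrps27 by 0.37 and 0.34, and Mrps5 by -0.48.

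Transcription factors known to act on nuclear genes for mitochondria were measured on the same arrays. Of 10 tested, 0 were called AKR-high and 2 DBA-high (20%) by limma, against 13.8% and 12.5% of all genes. By mean, 5 were higher in AKR F1 and 5 in DBA F1. Another 2 uncalled genes had an unadjusted p under 0.05 (limma), Nrf1 higher in AKR F1 and Yy1 higher in DBA F1. Gabpa, the DNA-binding subunit of GABP, read 9.76, 9.75 and 9.70 in AKR F1 and 10.09, 10.03 and 10.19 in DBA F1 (-0.37 ± 0.06, adjusted p = 0.00389, limma). Max, the partner of MYC, differed by -0.49 ± 0.13, but was not called without AKR replicate 2, DBA replicate 1 or DBA replicate 2 (adjusted p from 0.0532 to 0.0785, limma). Nrf1 (0.24), Yy1 (-0.19) and Myc (-0.15) were not called.

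Several members sat beside genes with the same call. In the gene order of GRCm38.p6, the 2 nearest tested genes on each side of the 19 members called AKR-high made 75 places, of which 18 held a gene called AKR-high and 5 a gene called DBA-high. Beside the 56 members not called, 28 of 223 places held a gene called AKR-high and 23 a gene called DBA-high. Over all genes tested, 13.8% were called AKR-high and 12.5% DBA-high, and no test of the neighbour counts was run. Both neighbours of Mrpl12 were called with it, Hgs (0.37) and Slc25a10 (0.45), a mitochondrial carrier gene, as were those of Mrpl34, Abhd8 (0.55) and Dda1 (0.39). Mrps12 lies next to Sars2, the mitochondrial seryl-tRNA synthetase gene, which was called at 0.64. Mrps18b lies in the H2 region, where its neighbour Ppp1r10 was called (0.59) and Atat1 was not (0.13). These neighbours are named after their values were seen.

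Other genes of mitochondrial translation were called in both directions. Over 4 lists, which hold ribosomal proteins with other symbols, translation factors, assembly factors and tRNA synthetases, 57 of 65 listed genes were tested. Of these, 14 were called AKR-high and 4 DBA-high (24.6% and 7.02%), against 13.8% and 12.5% of all genes, and the median was 0.10 against 0.03. The AKR count was 7, 9 and 8 without AKR replicates 1, 2 and 3, 5 without DBA replicate 2 and 8 without DBA replicate 3. Of the 4 ribosomal proteins with other symbols, Dap3, of the small subunit, was called at 0.34 ± 0.06 (adjusted p = 0.00469, limma). Gadd45gip1, of the large subunit, was called at 0.40 ± 0.11, but was not called without any 1 of the 3 AKR arrays, DBA replicate 2 or DBA replicate 3 (adjusted p from 0.0564 to 0.0850, limma). Ptcd3 (-0.20) and Chchd1 (0.00) were not called.

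Of 13 translation factors, 4 were called AKR-high and 2 DBA-high (30.8% and 15.4%). The elongation factor genes Tufm and Tsfm stood on the AKR side. Tufm read 9.51, 9.57 and 9.52 in AKR F1 and 9.16, 9.10 and 9.0 in DBA F1, with no overlap (0.45 ± 0.07, adjusted p = 0.00186, limma). Tsfm, its exchange factor, differed by 0.35 ± 0.08 (adjusted p = 0.0113, limma). The initiation factor gene Mtif2 stood on the DBA side, at 7.81, 7.99 and 8.01 against 8.35, 8.39 and 8.62 (-0.52 ± 0.10, adjusted p = 0.00506, limma). Oxa1l, which inserts the new proteins into the inner membrane, differed by 0.36 ± 0.07 on its brightest probe set, and the mean of its probe sets by 0.11 (adjusted p = 0.240, limma).

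Among 18 mitochondrial tRNA synthetase genes, 5 were called AKR-high and 1 DBA-high (27.8% and 5.56%). Sars2 read 7.62, 7.83 and 7.72 in AKR F1 and 7.10, 7.04 and 7.12 in DBA F1 (0.64 ± 0.08, adjusted p = 0.00103, limma). Pars2, for proline, differed by 0.42 ± 0.10, but was not called without DBA replicate 2 (adjusted p = 0.0558, limma). Vars2, for valine, read 7.09, 6.99 and 7.16 against 8.55, 8.62 and 8.65, which was 2.89-fold higher in DBA F1 (-1.53 ± 0.08). That difference was larger than any among the 76 members. Of 22 assembly genes, 3 were called AKR-high (13.6%, near the share of all genes) and 1 DBA-high, with Mterf3, a regulator of mitochondrial transcription and ribosome assembly, at -0.35 ± 0.07 (adjusted p = 0.00801, limma).

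Genes that copy and transcribe mitochondrial DNA had a median of -0.06. Of 14, 1 was called higher in each cross. Tfb2m, a factor of mitochondrial transcription initiation, differed by -0.35 ± 0.08 (adjusted p = 0.0120, limma). Polg, the DNA polymerase gene, differed by 0.22 ± 0.07, but was not called without any 1 of the 3 AKR arrays, DBA replicate 2 or DBA replicate 3 (adjusted p from 0.0686 to 0.132, limma). Of 27 listed respiratory chain genes tested, 9 were called AKR-high (33.3%) and 0 DBA-high by limma, against 13.8% and 12.5% of all genes. Their median was 0.15, and 5 others had an unadjusted p under 0.05, all with the higher mean in AKR F1. Atp5b of ATP synthase differed by 0.38 ± 0.05 (adjusted p = 0.000926, limma). Of the 9 called genes, Atp5b, Atp5a1 and Sdhc were called under every alternative setting that tested them. Uqcrc1 was called under 19 of 20, and Ndufv1 and Sdhb under 16 of 21. Cox6c was called under 13 of 21, Ndufa9 under 11 of 21 and Atp5o under 7 of 20. Atp5o was not called with any 1 array left out. The difference between this list and the ribosomal protein genes was not tested.

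Some markers of cell division and of other cells also differed between the crosses. Of 13 listed proliferation genes, 7 were called AKR-high (53.8%) and 0 DBA-high by limma, against 13.8% and 12.5% of all genes. Another 1 had an unadjusted p under 0.05 (limma), and the median was 0.23. Among those not called were Mki67 (AKR mean 11.96, DBA mean 11.94), Top2a (12.07 and 12.05) and Bub1 (9.996 and 10.005). Rrm2 of nucleotide synthesis differed by 0.29 ± 0.05. Called markers were 3 of 4 for B cells (Cr2, Cd79a and Cd79b, all AKR-high) and 3 of 6 for thymic epithelium. Over all genes 26.3% were called in either direction. The other B cell marker tested, Ms4a1, differed by 0.03 and was not called. Cr2 read 5.19, 5.23 and 5.44 in DBA F1, near the filter values of 5.21 to 5.28. For thymic epithelium the called markers were Foxn1 (0.67, AKR-high), Epcam (-0.59) and Aire (-0.34), both DBA-high. Of 2 erythroid markers tested, Hba-a2 was called AKR-high (1.28), while Alas2 had the higher mean in DBA F1 (-0.22) and was not called. Hba-a2 read 4.77, 5.14 and 5.21 in DBA F1, no higher than the lowest filter value (5.21). Its difference thus rested on low DBA values. The summed linear values of 4 B cell markers ran from 844 to 965 in AKR F1 and from 637 to 701 in DBA F1. For 8 thymocyte markers the sums ran from 30200 to 32800 and from 30300 to 30600, and for 6 thymic epithelial markers from 5230 to 5540 and from 5450 to 5740. Sums of 5 granulocyte and macrophage markers (1 AKR-high, 3 DBA-high) ran from 7130 to 7940 and from 7200 to 8000. The brightest of the 5, Lyz2 (AKR mean 12.53, DBA mean 12.26), was AKR-high and weighed most in these sums. S100a8 (-0.96), S100a9 (-0.97) and Mrc1 (-0.63) were DBA-high, so the near-equal sums did not show their differences. For 5 muscle markers the sums ran from 274 to 1190 and from 339 to 7280. Those of 4 fat markers ran from 2140 to 5930 and from 4030 to 7100. Those of 3 erythroid markers ran from 212 to 399 and from 221 to 273. Sums of 2 parathyroid and thyroid markers ran from 78.2 to 131 and from 65 to 419. Sums of 2 lymph node markers ran from 379 to 392 and from 119 to 485. The part of all these proliferation and marker genes in the differences of the ribosomal protein genes was not tested. In whole thymus, fewer cells of a type and less RNA per cell cannot be told apart.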

How the data were processed

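Probe set values on a log2 scale were deposited by the authors for 45101 probe sets on 6 arrays. Per the submitters' processing notes, MAS5 and RMA were used, but which gave these values is not stated there. Values ran from 2.47 to 14.42 with nearly equal medians, so true shifts of whole arrays cannot be seen. No detection calls were used. The 64 control probe sets were left out. Each gene was represented by its probe set of 1 symbol with the highest mean, and kept if above the 40th percentile (5.21 to 5.28) on at least 3 of 6 arrays. By Entrez identifier 34741 of 34945 probe sets of 1 symbol matched a RefSeq gene of GRCm38.p6, and 0 symbols changed. Another 4 probe sets with several symbols, including those of Mrpl30 and Mrpl53, were left out.

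The F1 groups were compared without a replicate block by two-sided moderated tests (limma 3.58.1, lmFit and eBayes with trend, R 4.3.3). P-values were adjusted by Benjamini-Hochberg over 12852 genes. The fit was tested on simulated data. The alternatives were 3 filters, 3 normalizations, a floor, other variance models, array weights, a replicate block, other probe set choices and each array left out. A fit over all 27385 probe sets was added after seeing the data. Members and lists were chosen with earlier results of these data known. Members named were the 10 called members of largest difference in each direction, the 10 with the smallest adjusted p, the 3 highest and 3 lowest means, the S18 homologues, Mrps36 and, from other lists, up to 4 called genes with the smallest adjusted p. Other names were added after values were seen. Replicates of the same number were correlated at 0.37, 0.00 and 0.38 in their deviations from the group means, so the numbers were not taken to pair the samples. Plots used Python 3.11.15 and matplotlib 3.10.9.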

Additional observations from a re-analysis of the deposited data

How the results depend on the processing

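Under 21 alternatives the median difference of the members kept its sign and moved by less than the spread between replicates. Of the 20 called members, 8 were called under every alternative that tested them. Of 56 not called, 20 were called under at least 1. The count of called members (20) was 36 after quantile normalization, 10 without sharing of variance between genes and 13 when probe sets with suffix _x_at, _s_at or _a_at were left out (60 members tested). The corresponding AKR counts were 35, 9 and 11 against 19. Over all genes tested, 3794, 1366 and 2859 were called in these settings, against 3383. The members' DBA count was 2 in that last setting and 0 when all probe sets of a gene were averaged, against 1. With the replicate number as a block, 31 members were called, 29 in the AKR direction and 2 in the DBA direction. The count over all genes was then 4526, against 3383. Whether the numbers pair the samples is not labelled, and 4 of the 6 arrays correlated best with the array of their own number. With 1 array left out, 14 to 23 members were called, 13 to 22 in the AKR direction and 1 to 1 in the DBA direction. Over all genes, 2269 to 2914 were called with 1 array left out. The members' median then ran from 0.12 to 0.18, and from 0.09 to 0.14 relative to all genes. For other genes of mitochondrial translation the AKR count was 5 to 11 and the DBA count 3 to 6 with 1 array left out, and 7 and 1 without sharing of variance between genes, against 14 and 4. The replicate block gave 15 and 6. Some settings had fewer samples or members, and the cause of these moves was not tested. With 3 arrays per cross, small differences of single members were not resolved.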
